A study of Homo sapiens with 8 samples.

Results

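The transforming growth factor beta (TGF-beta) and bone morphogenetic protein (BMP) pathway was followed through 43 genes that encode its ligands, the proteins that keep TGF-beta latent, its receptors, the SMAD proteins, their corepressors and ubiquitin ligases, and target genes. The list names genes by symbol and its rule uses no measured value, though it was drawn up with earlier results of these data known. All 43 were found among the 78899 genes of the count table. RNA was sequenced in bulk from GFP-labelled human microglia, the resident macrophages of the brain, in 4 libraries of tri-culture and 4 of mono-culture. The tri-culture microglia had been kept with other cells and without added cytokine. The mono-culture microglia had been kept alone with IL-34 at 100 ng/mL and M-CSF at 10 ng/mL, both ligands of the CSF1 receptor. The presence of partner cells and the lack of cytokine changed together, so their effects cannot be told apart. In both groups the microglia derived from a single line, H1, an established human embryonic stem cell line that the labels also describe as induced pluripotent, and were sorted on GFP 2 weeks after plating. The labels do not say what the partner cells were. Each of 4 batches gave 1 library per group, and the labels call the batches independent.

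TGF-beta ligands are secreted as latent complexes, held by LTBP proteins in the matrix or by NRROS on the surface of microglia, and act once they are released. A ligand brings type I and type II receptors together, which phosphorylate receptor SMADs: SMAD2 and SMAD3 for TGF-beta and activin, and SMAD1, SMAD5 and SMAD9 for BMPs. These bind SMAD4 and enter the nucleus, where targets include the pathway's own inhibitors. In mice, microglia need TGF-beta signalling to hold their homeostatic gene expression.

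The libraries held 17602010 to 24491765 counts in tri-culture and 17037481 to 33363972 in mono-culture. Levels are given as CPM, counts per 1e6 counts of the library after TMM scaling, and values per library are in the order of batches 1 to 4. All 11 genes of a microglia and macrophage list passed the filter on low counts. Of these, 3 were higher in tri-culture (CX3CR1, P2RY12 and TREM2) and 1 was lower (ITGAM), against 13.9% and 13% of all genes tested. ITGAM averaged 61.3 ± 33.4 CPM in tri-culture and 173 ± 32.3 CPM in mono-culture, without overlap. The summed level of the 11 genes ran from 4817 to 6089 CPM in tri-culture and from 3802 to 4560 CPM in mono-culture. The CSF1 receptor gene CSF1R averaged 1822 ± 508 CPM in tri-culture and 1391 ± 102 CPM in mono-culture, and PTPRC, the leukocyte antigen CD45, 632 ± 61.9 CPM in tri-culture and 620.1 ± 46.8 CPM in mono-culture. CD68, a defining macrophage gene, stood at 0.335 ± 0.176 CPM in tri-culture and 0.618 ± 0.196 CPM in mono-culture. Of the exon bases of CD68, 81.7% lie under other genes annotated on the same strand, so its level here is uncertain.

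Of the 43 genes, 40 passed the filter on low counts, and the other 3 were LRRC32, FST and ID1. By edgeR's quasi-likelihood test with Benjamini-Hochberg adjustment over all 16249 genes tested, 10 of the 40 rose (25%, against 13.9% of all genes tested) and 9 fell (22.5%, against 13% of all). The 19 called genes make 47.5% of the 40, and 26.9% of all genes tested were called. Of the 19, LTBP1 and BMP2 passed the filter through 1 group alone: all 4 libraries of that group and fewer than 4 of the other reached the filter's level of 0.464 CPM before TMM scaling, so they had to differ to be tested. Without genes of that kind 9 of 38 rose and 8 fell (44.7%, against 24% of 14434 genes). In bulk RNA, fewer cells of a type and less RNA per cell cannot be told apart. The 10 that rose were LTBP1, TGFBR2, BMP6, SMAD5, SMAD6, SMAD7, SKI, SKIL, SMURF1 and SMURF2. The 9 that fell were TGFB1, LTBP2, NRROS, TGFBR3, ACVRL1, ACVR2A, BMP2, SMAD2 and SMAD3. The median log2 fold change of the 40 was 0.20 and that of all genes tested was 0.02. The CPM values of the groups did not overlap for 16 of the 40 genes (40.0%), against 29.4% of all genes tested. In 18 of the 19 called genes the direction was the same in all 4 batches, and the other was BMP6. The calls came from the same libraries, and groups without overlap must have the same direction in every batch. This count is therefore no separate support for the calls. With library size as the only scaling, 63.0% of all called genes were higher, in place of 51.7%, and the median of all genes shifted to 0.12. In that setting 13 of the 40 were higher and 9 lower.

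**Figure D1:**
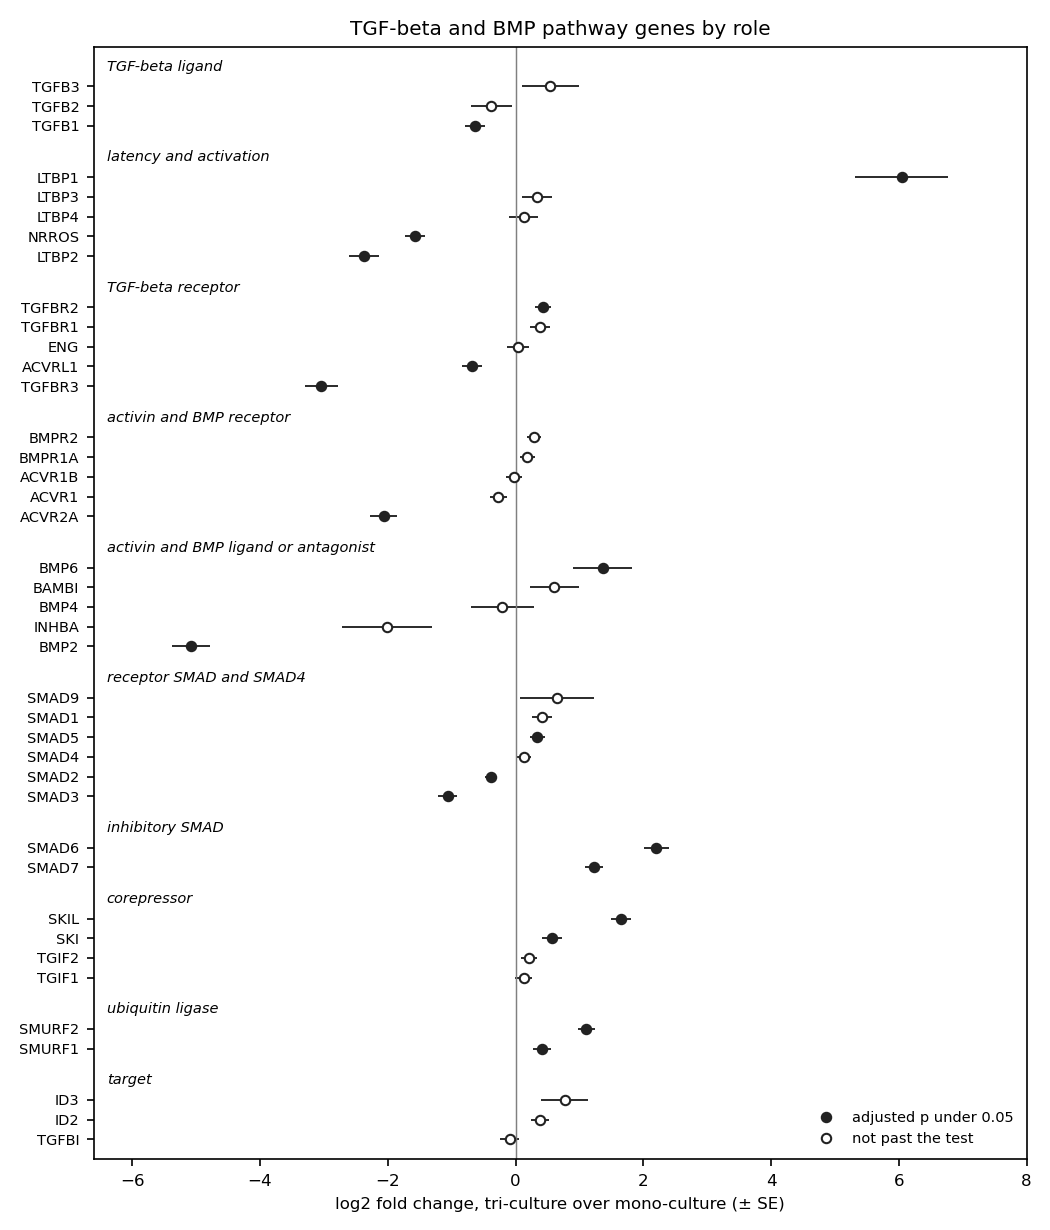
Log2 fold change of tri-culture over mono-culture for the 40 tested genes, grouped by role, as edgeR estimates with bars of 1 standard error. Filled points passed an adjusted p under 0.05. Both inhibitory SMADs and both ubiquitin ligases lie right of 0. Of the called ligands, TGFB1 and BMP2 lie left of 0 and BMP6 lies right of it. The called receptors other than TGFBR2 lie left of 0.

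Among the TGF-beta ligands, TGFB1 fell. TGFB1 (ENSG00000105329, chromosome 19, 41301587 to 41353911, GRCh38) encodes the main TGF-beta of immune cells. It stood at 134, 85.3, 139 and 149 CPM in the tri-culture libraries, against 199.9, 217, 173 and 201 CPM in the mono-culture libraries. The groups did not overlap, and tri-culture library 2 was the lowest of all. The group means were 127 ± 28.4 CPM in tri-culture and 198 ± 18.2 CPM in mono-culture (SD, n = 4 each). The log2 fold change was -0.64 ± 0.16 SE by edgeR (adjusted p = 0.00841). TGFB2, whose product signals through the same receptors, stood at 3.12, 5.71, 11.1 and 9.56 CPM in tri-culture and 7.94, 12.3, 7.96 and 10.3 CPM in mono-culture and did not pass the test (log2 fold change -0.38 ± 0.32 SE, adjusted p = 0.433). The ranges of TGFB2 overlapped, and tri-culture library 1 was the lowest. TGFB3 was low in both groups, at 0.449 to 0.987 CPM in tri-culture and 0.358 to 0.840 CPM in mono-culture (adjusted p = 0.422).

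Of the latency genes, LTBP2 and NRROS fell and LTBP1 rose. NRROS (ENSG00000174004, chromosome 3, 196639686 to 196662004) encodes the leucine-rich protein that tethers latent TGF-beta1 to microglia and other myeloid cells. It stood at 32.0, 30.1, 45.8 and 46.1 CPM in tri-culture libraries, against 118, 133, 104 and 106 CPM in mono-culture libraries. Every tri-culture value was below every mono-culture value, and the decrease was 2.99-fold (log2 fold change -1.58 ± 0.16 SE, adjusted p = 1.02e-05). LTBP2 (ENSG00000119681, chromosome 14, 74498170 to 74612378) encodes a matrix protein of elastic fibres that belongs to the LTBP family but does not bind latent TGF-beta as its relatives do. Its levels were 26.7, 17.1, 38.8 and 31.7 CPM in tri-culture libraries and 113, 129, 176 and 173 CPM in mono-culture libraries, a 5.18-fold decrease without overlap (log2 fold change -2.37 ± 0.23 SE, adjusted p = 7.24e-06).

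LTBP1 (ENSG00000049323, chromosome 2, 32946972 to 33399509) encodes the LTBP that binds the latent complex and anchors it in the matrix. It was near the limit of detection, with 88 counts over the tri-culture libraries and 1 count over the mono-culture libraries, so it passed the filter through tri-culture alone. The ratio of these counts, scaled to library size, was 97.9 (95% exact interval 17.1 to 3909, counting error only). Per library LTBP1 stood at 1.10, 0.693, 0.907 and 1.40 CPM in tri-culture and 0.0342, 0, 0 and 0 CPM in mono-culture. Without mono-culture library 1, which held the single count, its fitted log2 fold change was 7.52 in place of 6.04. LTBP3 and LTBP4, further latency proteins, averaged 8.69 ± 1.22 and 16.2 ± 5.68 CPM in tri-culture, against 6.85 ± 2.27 and 14.8 ± 2.04 CPM in mono-culture, and neither passed the test (adjusted p = 0.342 and 0.736). LRRC32, which presents latent TGF-beta on regulatory T cells and platelets, had 23 counts over the tri-culture libraries and 11 over the mono-culture libraries and was not tested.

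TGFBR2 rose slightly, while TGFBR3 and ACVRL1 fell. TGFBR2 (ENSG00000163513, chromosome 3, 30606502 to 30694142), the type II receptor that binds TGF-beta first, stood at 586, 465, 463 and 473 CPM in tri-culture and 381, 385, 315 and 394 CPM in mono-culture. All tri-culture values were above all mono-culture values, with tri-culture library 1 apart at the top and mono-culture library 3 apart at the bottom. The log2 fold change was 0.43 ± 0.13 SE (adjusted p = 0.0224), and the call was lost without tri-culture library 1 (adjusted p = 0.0671) and without mono-culture library 3 (0.0795). TGFBR1, the type I partner, stood at 707, 1065, 1015 and 855 CPM in tri-culture and 697, 592, 857 and 649 CPM in mono-culture. Its ranges overlapped and it did not pass the test (log2 fold change 0.38 ± 0.16 SE, adjusted p = 0.105), though it did without tri-culture library 1 (0.0388).

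TGFBR3 (ENSG00000069702, chromosome 1, 91680343 to 91906335) encodes betaglycan, a co-receptor that presents ligand, TGF-beta2 above all, to TGFBR2. It stood at 0.827, 0.612, 0.907 and 0.883 CPM in tri-culture, against 6.78, 7.94, 4.92 and 7.02 CPM in mono-culture, an 8.22-fold decrease without overlap (log2 fold change -3.04 ± 0.26 SE, adjusted p = 2.85e-06). ACVRL1 (ENSG00000139567, chromosome 12, 51906908 to 51923361), a type I receptor known for BMP9 and TGF-beta signalling in endothelium, stood at 12.5, 8.32, 9.11 and 9.66 CPM in tri-culture and 14.6, 16, 17.1 and 15.8 CPM in mono-culture. The groups did not overlap (log2 fold change -0.68 ± 0.16 SE, adjusted p = 0.00517). ENG, endoglin, a co-receptor that acts with ACVRL1, averaged 284 ± 68.1 CPM in tri-culture and 276 ± 37.7 CPM in mono-culture and did not pass the test (log2 fold change 0.04 ± 0.17 SE, adjusted p = 0.898).

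**Figure D2:**
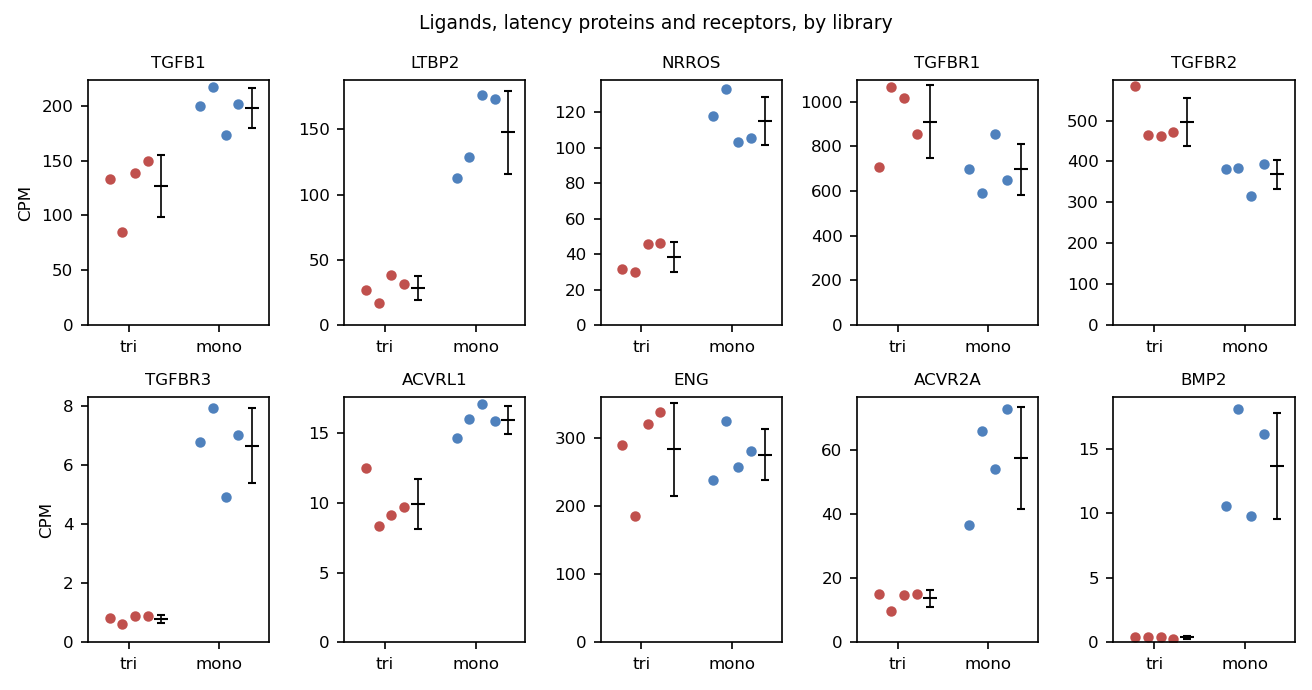
CPM of 10 genes for ligands, latency proteins and receptors in each tri-culture library (left) and mono-culture library (right), in the order of batches 1 to 4, with the mean and SD of each group as a bar. TGFB1, LTBP2, NRROS, TGFBR3, ACVRL1, ACVR2A and BMP2 have every tri-culture point below every mono-culture point, TGFBR2 has them above, and TGFBR1 and ENG overlap.

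Of the 5 activin and BMP receptors, ACVR2A fell and the other 4 did not pass the test. ACVR2A (ENSG00000121989, chromosome 2, 147844517 to 147930826), a type II receptor for activins and some BMPs, stood at 15.2, 9.83, 14.8 and 15 CPM in tri-culture, against 36.6, 66.0, 53.9 and 72.8 CPM in mono-culture. The groups were far apart, with a 4.18-fold decrease (log2 fold change -2.06 ± 0.21 SE, adjusted p = 1.23e-05). BMPR2, the main BMP type II receptor, averaged 125 ± 9.92 CPM in tri-culture and 102 ± 12.7 CPM in mono-culture (adjusted p = 0.0845, and 0.0391 without mono-culture library 1). The type I receptors ACVR1, ACVR1B and BMPR1A had log2 fold changes of -0.27, -0.02 and 0.19 (adjusted p = 0.167, 0.938 and 0.282).

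Of the BMP and activin ligands, BMP2 fell and BMP6 rose. BMP2 (ENSG00000125845, chromosome 20, 6767664 to 6780280), a BMP ligand that acts through SMAD1, SMAD5 and SMAD9, stood at 0.413, 0.449, 0.453 and 0.260 CPM in tri-culture, against 10.6, 18.1, 9.81 and 16.1 CPM in mono-culture. The highest tri-culture value was far below the lowest mono-culture value, a 33.7-fold decrease (log2 fold change -5.08 ± 0.30 SE). BMP2 passed the filter through mono-culture, and 1 of the 4 tri-culture libraries reached its level. BMP6 (ENSG00000153162, chromosome 6, 7726797 to 7881422), a ligand that also controls iron handling through hepcidin, stood at 1.88, 2.41, 3.17 and 3.69 CPM in tri-culture and 2.26, 0.555, 0.477 and 0.960 CPM in mono-culture. In batch 1 BMP6 was lower in tri-culture, the groups overlapped, and the log2 fold change was 1.36 ± 0.46 SE (adjusted p = 0.0436). Without mono-culture library 1 the log2 fold change of BMP6 was 2.09 (adjusted p = 0.00251). The call was lost without tri-culture library 2, 3 or 4 and without mono-culture library 2, 3 or 4, at adjusted p from 0.0598 to 0.118.

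The other ligands and antagonists were at low levels and none passed the test. BMP4 stood at 0.775 to 4.36 CPM in tri-culture and 1.73 to 3.15 CPM in mono-culture (adjusted p = 0.811). INHBA, the subunit of activin A, stood at 0, 0.0816, 0.544 and 0.312 CPM in tri-culture and 1.27, 1.22, 0.447 and 0.900 CPM in mono-culture, with overlapping ranges (log2 fold change -2.01 ± 0.71 SE, adjusted p = 0.0518). INHBA passed without tri-culture library 3 (adjusted p = 0.0192) and without mono-culture library 3 (0.041), and by DESeq2 (0.028). BAMBI, a pseudoreceptor that blocks signalling, averaged 2.31 ± 0.494 CPM in tri-culture and 1.56 ± 0.802 CPM in mono-culture (adjusted p = 0.283). FST, follistatin, which binds activins, did not pass the filter and had 57 counts over the tri-culture libraries and 2 over the mono-culture libraries, a scaled ratio of 31.7 (95% exact interval 8.38 to 268, counting error only).

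Of the receptor SMADs and SMAD4, the TGF-beta and activin SMADs fell, SMAD5 rose slightly and the other 3 did not pass the test. SMAD3 (ENSG00000166949, chromosome 15, 67063763 to 67195195), which binds DNA directly, stood at 40.8, 34.6, 47.6 and 53.8 CPM in tri-culture and 106, 79.4, 97.4 and 85.5 CPM in mono-culture. The highest tri-culture library was below the lowest mono-culture library (log2 fold change -1.06 ± 0.15 SE, adjusted p = 0.000128). SMAD2 (ENSG00000175387, chromosome 18, 47808957 to 47931146) stood at 101, 102, 97.3 and 98.1 CPM in tri-culture and 129, 126, 131 and 135 CPM in mono-culture. The spread within each group of SMAD2 was narrow, and the groups did not overlap (log2 fold change -0.39 ± 0.09 SE, adjusted p = 0.00564).

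SMAD5 (ENSG00000113658, chromosome 5, 136132845 to 136188747), a BMP receptor SMAD, stood at 83.2, 88.5, 69.6 and 68.6 CPM in tri-culture and 66.3, 53.8, 61.6 and 63.3 CPM in mono-culture. The groups of SMAD5 lay next to each other without overlap, and the log2 fold change was 0.34 ± 0.12 SE (adjusted p = 0.0492). The call of SMAD5 was lost with the batch as a block (adjusted p = 0.0564). Leaving out tri-culture library 1 or 2 (0.11 and 0.128) or any one mono-culture library (0.0549 to 0.151) also ended it. SMAD1, SMAD9 and the shared partner SMAD4 averaged 15.1 ± 1.94, 0.786 ± 0.467 and 70.5 ± 6.95 CPM in tri-culture, against 11.3 ± 2.06, 0.495 ± 0.207 and 64.2 ± 4.08 CPM in mono-culture. None of these 3 passed the test (adjusted p = 0.081, 0.47 and 0.405), and SMAD1 did without mono-culture library 4 (0.0361).

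Both inhibitory SMADs rose. SMAD6 (ENSG00000137834, chromosome 15, 66702228 to 66782848), which blocks BMP signalling above all, stood at 9.37, 9.05, 9.66 and 9.87 CPM in tri-culture, against 2.12, 2.11, 2.42 and 1.5 CPM in mono-culture. The tri-culture values lay within a narrow band well above the mono-culture values, a 4.60-fold increase (log2 fold change 2.20 ± 0.20 SE, adjusted p = 4.3e-06). SMAD7 (ENSG00000101665, chromosome 18, 48919853 to 48952052), which blocks both TGF-beta and BMP receptors and recruits SMURF ligases to them, stood at 37.4, 32.9, 42.9 and 39.1 CPM in tri-culture and 17.3, 12.5, 19.3 and 15.7 CPM in mono-culture. The groups of SMAD7 did not overlap, and the increase was 2.34-fold (log2 fold change 1.23 ± 0.15 SE, adjusted p = 4.42e-05).

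Of the 4 corepressors, SKIL and SKI rose. SKIL (ENSG00000136603, chromosome 3, 170357678 to 170396835) encodes SnoN, which holds SMAD complexes inactive on DNA and is itself a TGF-beta target. It stood at 165, 157, 167 and 157 CPM in tri-culture, against 41.5, 44.5, 70.4 and 49.4 CPM in mono-culture. The lowest tri-culture library had more than the highest mono-culture library by a wide margin (log2 fold change 1.65 ± 0.15 SE, adjusted p = 5.2e-06). SKI (ENSG00000157933, chromosome 1, 2228695 to 2310119), its relative, stood at 66.7, 47.6, 79.1 and 78.0 CPM in tri-culture and 51.3, 41.2, 44.1 and 45.8 CPM in mono-culture. Tri-culture library 2 of SKI lay below mono-culture library 1, so the groups overlapped (log2 fold change 0.57 ± 0.15 SE, adjusted p = 0.0135). The homeobox corepressors TGIF1 and TGIF2 averaged 36.1 ± 5.38 and 17.5 ± 1.48 CPM in tri-culture, against 33 ± 3.21 and 15.2 ± 1.36 CPM in mono-culture, and did not pass the test (adjusted p = 0.529 and 0.277).

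Both SMURF genes, ubiquitin ligases that mark receptors and SMADs for degradation, rose. SMURF2 (ENSG00000108854, chromosome 17, 64542295 to 64662068) stood at 190.4, 168, 163 and 163 CPM in tri-culture, against 83.1, 64.7, 95.9 and 72.7 CPM in mono-culture, a 2.16-fold increase without overlap (log2 fold change 1.11 ± 0.13 SE, adjusted p = 3.42e-05). SMURF1 (ENSG00000198742, chromosome 7, 99027438 to 99144100) stood at 43.2, 42.5, 58.9 and 58.1 CPM in tri-culture and 36, 35.0, 43 and 38.1 CPM in mono-culture. Tri-culture library 2 of SMURF1 was just below mono-culture library 3, so the ranges overlapped (log2 fold change 0.41 ± 0.14 SE, adjusted p = 0.0406). The call of SMURF1 was lost without tri-culture library 3 or 4 and without mono-culture library 1, 2 or 4, at adjusted p from 0.0887 to 0.121.

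**Figure D3:**
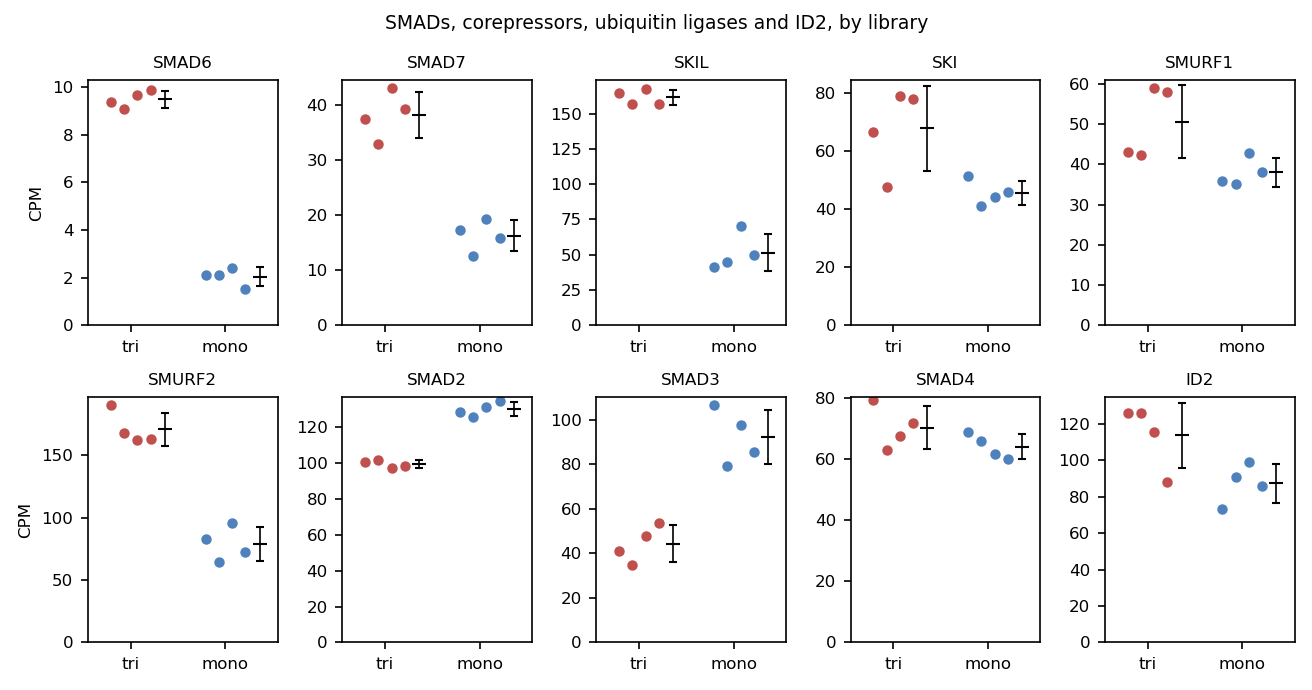
CPM of SMADs, corepressors, ubiquitin ligases and ID2 in each tri-culture library (left) and mono-culture library (right), in the order of batches 1 to 4, with the mean and SD of each group as a bar. For SMAD6, SMAD7, SKIL and SMURF2 every tri-culture point is above every mono-culture point, for SMAD2 and SMAD3 every one is below, and SKI, SMURF1, SMAD4 and ID2 overlap.

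The bases just before the RefSeq start of 3 of these genes are shown so that the letters SMAD proteins bind can be seen beside genes that moved in opposite directions. These are SMAD6 and SKIL, which rose, and NRROS, which fell. The SMAD binding element is built on the letters GTCT, and a GC-rich element with the letters GGCGCC is bound by BMP SMADs. Capitals mark every GTCT, its reverse complement AGAC, and GGCGCC. The strand is plus for all 3 and the build is GRCh38.p14. The regions are chr15:66701986-66702235 for SMAD6, chr3:170357465-170357677 for SKIL and chr3:196639444-196639693 for NRROS. The last 8 bases of the SMAD6 and NRROS windows lie inside the genes as annotated in GENCODE 29, and the SKIL window stops before that start.
SMAD6: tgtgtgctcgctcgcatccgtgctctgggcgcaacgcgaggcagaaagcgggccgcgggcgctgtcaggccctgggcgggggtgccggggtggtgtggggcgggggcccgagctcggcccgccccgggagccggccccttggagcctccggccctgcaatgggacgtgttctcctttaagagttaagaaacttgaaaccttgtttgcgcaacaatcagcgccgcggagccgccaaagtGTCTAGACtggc
SKIL: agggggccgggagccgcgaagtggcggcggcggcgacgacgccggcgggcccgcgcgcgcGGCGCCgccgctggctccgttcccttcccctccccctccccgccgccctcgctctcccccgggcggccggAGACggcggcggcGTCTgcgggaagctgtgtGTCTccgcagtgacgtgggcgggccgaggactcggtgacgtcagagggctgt
NRROS: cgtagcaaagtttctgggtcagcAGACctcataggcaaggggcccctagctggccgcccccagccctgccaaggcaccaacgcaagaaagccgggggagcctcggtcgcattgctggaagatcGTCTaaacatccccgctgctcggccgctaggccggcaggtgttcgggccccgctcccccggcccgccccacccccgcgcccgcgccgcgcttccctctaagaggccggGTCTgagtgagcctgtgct

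The stretch before SMAD6 holds GTCTAGAC, in which 2 such elements face each other, beginning 12 bases before the RefSeq start. This 8-base form was searched for after the sequences had been seen. It occurs in 64 of 35116 RefSeq windows of the same 250 bases (0.182%) and in 1 of the 39 windows of the pathway genes that have one. The SKIL stretch holds 3 matches to GTCT, 1 of which is part of a CAGAC, and 1 to GGCGCC. That of NRROS holds 3 matches to GTCT, 2 of them within a CAGAC. Over both strands GTCT occurs in 77.5% of all windows, CAGAC, which contains the reverse complement of GTCT, in 38.0% and GGCGCC in 16.4%. Of the 39 pathway windows, 31, 15 and 11 hold them. Matches of this length are common in windows of this size, and a match is not a measured binding site.

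The 4 target genes on the list did not pass the test or the filter. TGFBI, a secreted matrix protein named for its induction by TGF-beta, averaged 906 ± 153 CPM in tri-culture and 966 ± 88.8 CPM in mono-culture (log2 fold change -0.09 ± 0.15 SE, adjusted p = 0.709). ID2, one of the inhibitors of DNA binding that BMPs induce, stood at 126, 126, 116 and 88.2 CPM in tri-culture and 73.4, 90.9, 99.4 and 86.0 CPM in mono-culture. Its ranges overlapped through tri-culture library 4 (log2 fold change 0.38 ± 0.14 SE, adjusted p = 0.0528). ID2 passed with the batch as a block (adjusted p = 0.0396), without tri-culture library 4 (0.00922) and without mono-culture library 3 (0.0433).

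ID3, a relative of ID2, stood at 9.92, 5.75, 4.44 and 4.16 CPM in tri-culture and 2.81, 6.22, 3.49 and 1.80 CPM in mono-culture (log2 fold change 0.77 ± 0.37 SE, adjusted p = 0.152). Its groups overlapped, and it passed without mono-culture library 2 (adjusted p = 0.0385). ID1, the member of this family most used as a BMP readout, had 12 counts over the tri-culture libraries and 7 over the mono-culture libraries and was not tested.

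Levels of different genes were set side by side with the deposited length-normalised values. In tri-culture TGFBI was first at 424 ± 71.2, followed by TGFBR1 at 391 ± 72.8 and TGFBR2 at 252 ± 29.2 (SD, n = 4). In mono-culture the same genes led, at 449 ± 41.1, 298 ± 50.2 and 186 ± 18.4. TGFBI and TGFBR1 lay within their spread of each other in tri-culture. NRROS was 9th in tri-culture, at 41.4 ± 9.25, and 6th in mono-culture, at 123 ± 13.4. SKIL was 8th in tri-culture, at 71.0 ± 2.65, and 15th in mono-culture, at 22.5 ± 5.69. NRROS thus stood below SKIL in tri-culture and above it in mono-culture. The ID genes were far apart, with ID2 at 148 ± 24.0, ID3 at 11.4 ± 4.98 and ID1 at 0.258 ± 0.172 in tri-culture, against 113 ± 13.2, 6.67 ± 3.42 and 0.127 ± 0.0284 in mono-culture. BMP2 was 39th of the 43 in tri-culture, at 0.368 ± 0.0876, and 19th in mono-culture, at 12.6 ± 3.65. Among the receptor SMADs in mono-culture, SMAD3 at 33 ± 4.71 stood above SMAD5 at 23.8 ± 2.40, whereas in tri-culture SMAD5 at 30.3 ± 3.98 stood above SMAD3 at 15.9 ± 2.90.

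**Figure D4:**
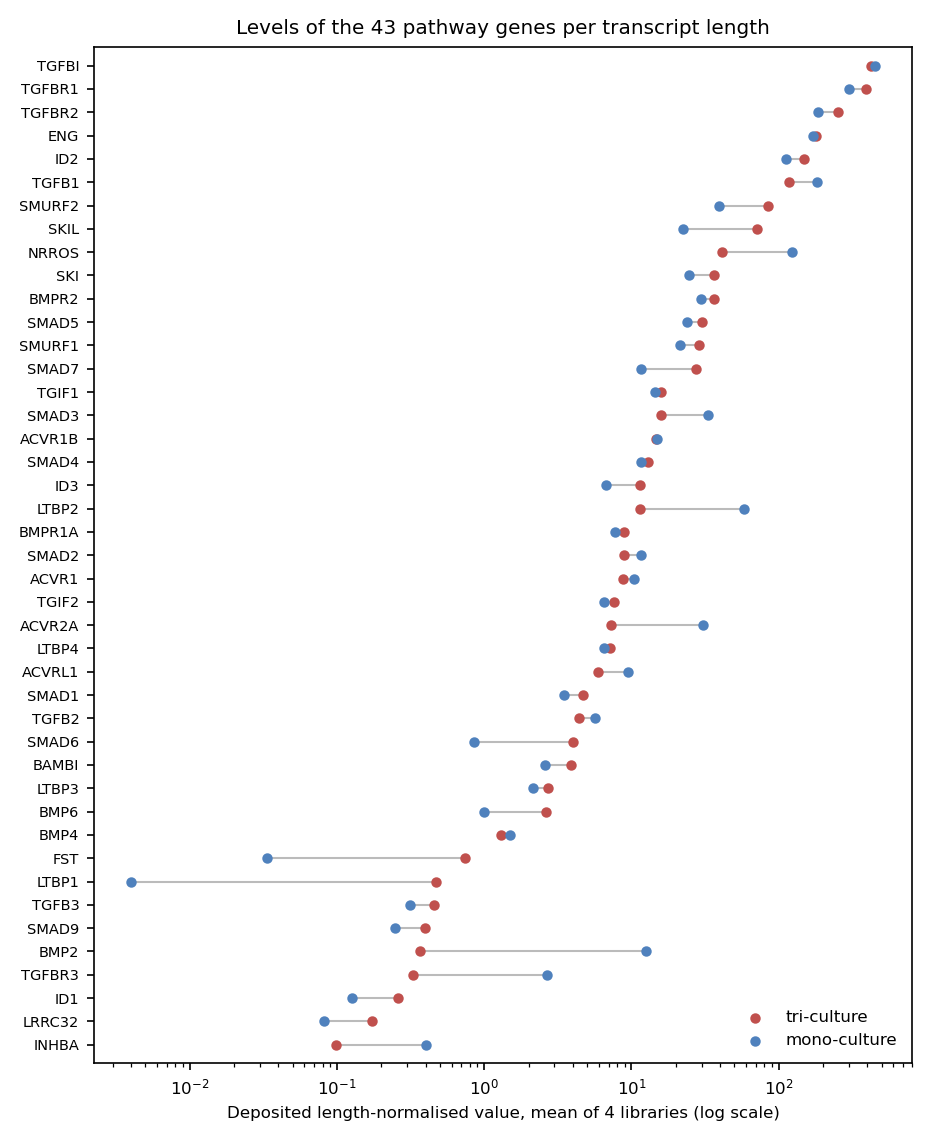
Mean deposited length-normalised value of the 43 genes (log scale) in tri-culture and mono-culture, 4 libraries each, ordered from high to low in tri-culture. TGFBI, TGFBR1 and TGFBR2 lead in both groups, and BMP2, TGFBR3, LTBP2 and ACVR2A lie well to the left in tri-culture.

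Further genes of the pathway were counted from lists, which were chosen with earlier results of these data known. Over all genes tested, 13.9% rose and 13% fell, and these shares stand beside the count of each list below. Of the genes that did not pass the filter through 1 group alone, 24% were called. Of 11 tested genes that release latent TGF-beta or hold it in the matrix, 5 rose and 1 fell. With the batch as a block 5 rose and 2 fell, as ITGB5, another integrin beta chain that pairs with ITGAV, then passed as lower (adjusted p = 0.0502 without the block and 0.0312 with it). ITGB8, the integrin beta chain that pairs with ITGAV to activate latent TGF-beta, stood at 10.6, 9.95, 15.6 and 14.7 CPM in tri-culture, against 1.30, 2.61, 2.15 and 2.88 CPM in mono-culture (log2 fold change 2.53 ± 0.26 SE, adjusted p = 1.31e-05). ITGAV rose too, to 451 ± 21.5 CPM in tri-culture, against 263 ± 19.7 CPM in mono-culture (log2 fold change 0.78 ± 0.11 SE). The metalloproteinases went apart: MMP2 had a log2 fold change of 1.12 ± 0.15 SE and MMP9 of -2.14 ± 0.18 SE (adjusted p = 9.55e-05 and 2.28e-06).

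Of 22 further ligands only 6 passed the filter, with 1 higher and 1 lower. BMP7, a ligand made by many epithelia, rose to 2.60 ± 1.20 CPM in tri-culture, against 0.182 ± 0.122 CPM in mono-culture, and GDF15, a stress-induced relative, fell to 0.643 ± 0.112 CPM in tri-culture, against 6.26 ± 2.50 CPM in mono-culture (adjusted p of GDF15 = 9.42e-06). BMP7 passed the filter through tri-culture alone. Of 6 further receptors and co-receptors tested, 2 rose and 1 fell, and both that rose passed the filter through tri-culture alone. BMPR1B, a BMP type I receptor, stood at 0.919, 2.77, 6.80 and 4.05 CPM in tri-culture and had no count in mono-culture, where a floor of 3 counts in all makes it at least 117-fold higher. RGMA, a BMP co-receptor, stood at 4.91, 9.95, 17.1 and 13.8 CPM in tri-culture and had 3 counts over the mono-culture libraries, a scaled ratio of 369 (95% exact interval 126 to 1790.0). CD109, a TGF-beta co-receptor that dampens signalling, fell to 39.6 ± 10.5 CPM in tri-culture, against 168 ± 19.4 CPM in mono-culture (log2 fold change -2.09 ± 0.17 SE, adjusted p = 2.38e-06).

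Of 7 secreted antagonists tested, 3 rose and 2 fell, and all 3 that rose passed the filter through tri-culture alone. NOG (noggin) and CHRDL1, which bind BMPs, averaged 0.642 ± 0.129 and 1.17 ± 0.162 CPM in tri-culture and had no count in mono-culture. FSTL1, a follistatin-like protein, averaged 12.5 ± 3.27 CPM in tri-culture and 0.402 ± 0.277 CPM in mono-culture, and NBL1, another BMP antagonist, fell to 25.5 ± 5.20 CPM in tri-culture, against 54.0 ± 19.3 CPM in mono-culture (adjusted p of NBL1 = 0.00415). TWSG1 was the other antagonist that fell (adjusted p = 0.0295). Its call was lost without tri-culture library 1, 3 or 4 or mono-culture library 1 or 4 (adjusted p up to 0.0916). Of 21 tested intracellular regulators, 17 did not pass. PMEPA1, a TGF-beta target that sequesters receptor SMADs, rose to 23.3, 16.8, 17.8 and 15.8 CPM in tri-culture, against 3.15, 3.55, 3.04 and 3.36 CPM in mono-culture (log2 fold change 2.50 ± 0.17 SE, adjusted p = 4.83e-07). ZFYVE9, which presents SMAD2 and SMAD3 to the receptor, rose by 1.24 ± 0.25 SE on the log2 scale (adjusted p = 0.00207). The ubiquitin ligase WWP1 fell by 0.77 on the log2 scale (adjusted p = 0.00128). FKBP1A, which guards the type I receptor against leaky activation, fell by 0.47 on the log2 scale (adjusted p = 0.0443), a call lost without tri-culture library 2, 3 or 4 or mono-culture library 1, 2 or 4 (adjusted p up to 0.131).

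All 13 tested genes of a list of other SMAD targets passed the test, against 26.9% of all genes tested. The list was chosen with earlier results of these data known, so this share cannot be read as a result about SMAD targets. The 13 genes went in both directions, with 5 higher and 8 lower, against 13.9% and 13% of all. Of the 13, 4 passed the filter through 1 group alone (2 higher, CCN2 and ID4, and 2 lower), and the other 9 had 3 higher and 6 lower. Over the whole table, 24% of genes that did not pass the filter in that way were called. The call of JUNB, lower, was lost without tri-culture library 2, 3 or 4 or mono-culture library 2 (adjusted p up to 0.0869). The call of HMOX1, also lower, was lost without tri-culture library 3 or 4 or mono-culture library 1, 2 or 3 (up to 0.0907). FN1, the matrix protein fibronectin, stood at 4.23, 1.06, 18.2 and 6.49 CPM in tri-culture and 1.61, 1.11, 1.64 and 1.20 CPM in mono-culture. The collagen gene COL1A1 stood at 22.8, 0.0408, 46.7 and 12.7 CPM in tri-culture and 0.308, 0, 0.239 and 0 CPM in mono-culture. Both were lowest in tri-culture library 2 and highest in library 3 within tri-culture, and the part of mesenchymal cells in the level of FN1 was not tested. KLF10, an early TGF-beta response gene, stood at 68.9, 49.0, 60.8 and 61.5 CPM in tri-culture and 18.9, 15.9, 18.2 and 13.9 CPM in mono-culture (log2 fold change 1.84 ± 0.14 SE, adjusted p = 1.17e-06). RUNX3, a transcription factor that works with SMADs, rose to 346 ± 61.1 CPM in tri-culture, against 116 ± 13.9 CPM in mono-culture. NEDD9, a scaffold protein, and CDKN2B, the cell cycle inhibitor p15, both known to be induced by TGF-beta in epithelial cells, fell by 1.71 and 2.88 on the log2 scale (adjusted p = 1.74e-06 and 2.34e-06). The median log2 fold change of the 13 genes was -0.60, against 0.02 over all genes.

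A list of 18 genes known from mice to depend on TGF-beta in microglia had 16 in the table and 15 tested. Of these, 9 rose and 1 fell (13.9% and 13% over all genes tested), with a median log2 fold change of 0.67. With the batch as a block 9 rose and 2 fell, as TMEM119, a membrane protein of microglia, then passed as lower (adjusted p = 0.0855 without the block and 0.00761 with it). OLFML3 stood at 222, 207, 219 and 183 CPM in tri-culture and 31.0, 34.4, 30.8 and 20.5 CPM in mono-culture (log2 fold change 2.83 ± 0.15 SE, adjusted p = 7.38e-08). CX3CR1, the fractalkine receptor, rose to 833 ± 214 CPM in tri-culture, against 120.2 ± 30.7 CPM in mono-culture. P2RY12, the ADP receptor of resting microglia, rose to 71.6 ± 17.6 CPM in tri-culture, against 23.2 ± 6.96 CPM in mono-culture. SALL1, a transcription factor of microglia and of neural cells, stood at 3.63, 9.22, 13.1 and 12.7 CPM in tri-culture and had no count in mono-culture. It passed the filter through tri-culture alone and was lowest in tri-culture library 1 and highest in library 3, as were GFAP, AQP4 and SOX2, markers of astrocytes or neural progenitors. The part of such cells in its level was not tested.

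Markers of other cells were set beside these results. Over all genes tested, 13.9% rose and 13% fell. Of 19 tested astrocyte and neural progenitor markers, 14 rose and 2 fell (13 and 2 with the batch as a block, where SOX9 missed the threshold at adjusted p = 0.101). SOX9 also lost its call without tri-culture library 3 or 4 or mono-culture library 2, 3 or 4 (up to 0.0766). The summed level of the 20 listed was 1897 to 2175 CPM in tri-culture and 1671 to 2117 CPM in mono-culture, most of it from VIM (569 ± 35.1 CPM in tri-culture and 948 ± 136 CPM in mono-culture) and GLUL (544 ± 81.5 CPM in tri-culture and 591 ± 73.8 CPM in mono-culture). GFAP, the defining astrocyte gene, named after its values were seen, stood at 63.2, 151, 254 and 201 CPM in tri-culture and 0.411, 0.444, 0.149 and 0.180 CPM in mono-culture. S100B, also on that list, averaged 359 ± 133 CPM in tri-culture and 124 ± 22.5 CPM in mono-culture. ALDH1L1, AQP4, HES5, PTPRZ1 and SOX2 had no count in mono-culture, and together they stood at 26.1, 44.9, 79.1 and 59.5 CPM in the tri-culture libraries. Of those libraries, number 1 was the lowest and number 3 the highest. Of the 19 tested markers, 12 were lowest in tri-culture library 1 and highest in library 3, as were 9.96% of all genes tested. Of the 40 pathway genes this held for 4 (10%), TGFB2, ACVR1, BMPR2 and INHBA, none of them called. Among all genes called higher, this order held for 349 of 2261, and among the markers called higher for 10 of 14. Of the 5 latent TGF-beta genes that rose it held for ITGB3, and it held for the 1 further ligand that rose, BMP7. It held for both further receptors that rose, BMPR1B and RGMA, and for CCN2 and ID4 of the 5 other SMAD targets that rose. Of the 9 mouse microglia genes that rose it held for P2RY12 and SALL1. It held for none of the 3 antagonists and 2 intracellular regulators that rose. The part of other cells in these levels was not tested.

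Of 7 tested neuron markers, 4 rose and 2 fell, with a summed level over the 17 listed of 31.8 to 60.4 CPM in tri-culture and 27.3 to 50 CPM in mono-culture. DCX, GAD1, GAD2, GAP43, SLC17A6, SNAP25 and STMN2 had no count in mono-culture, and GAD2 had none in tri-culture either. ELAVL4, an RNA-binding protein of neurons, averaged 17.6 ± 2.25 CPM in tri-culture and 3.93 ± 1.42 CPM in mono-culture, and MAP2, a dendrite protein, 12.2 ± 4.52 CPM in tri-culture and 15.3 ± 3.93 CPM in mono-culture. Of 11 tested mesenchymal and vascular markers, 4 rose and none fell (also 4 with the batch as a block, where COL3A1 passed at adjusted p = 2.63e-05, against 0.0505 without it, and COL6A3 did not, at 0.0678 against 0.0485). The 15 listed summed to 582 to 906 CPM in tri-culture and 280 to 367 CPM in mono-culture, with PECAM1, which myeloid cells also express, as the most abundant (488 ± 56.5 CPM in tri-culture and 271 ± 35.7 CPM in mono-culture). DCN, a matrix proteoglycan, stood at 68.5, 0, 36 and 8.21 CPM in tri-culture and 0.205, 0, 0.209 and 0 CPM in mono-culture. COL3A1, a fibrillar collagen, stood at 203, 0, 222 and 81.7 CPM in tri-culture and 2.53, 0, 3.34 and 0 CPM in mono-culture. FST stood at 0.781, 0.0408, 1.5 and 0.312 CPM in tri-culture and at 0, 0, 0 and 0.120 CPM in mono-culture. Both FST and LTBP1 were lowest in tri-culture library 2, which had no count of COL3A1. Other pathway genes, among them TGFB1, NRROS, SMAD7 and SKI, were lowest there too, while SMAD2 and SMAD5 were highest there. How often this holds over all genes was not counted. FST had the same order as COL3A1 over the tri-culture libraries, whereas LTBP1 was highest in tri-culture library 4, at 1.40 CPM. The part of mesenchymal cells in the counts of FST and LTBP1 was not tested.

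**Figure D5:**
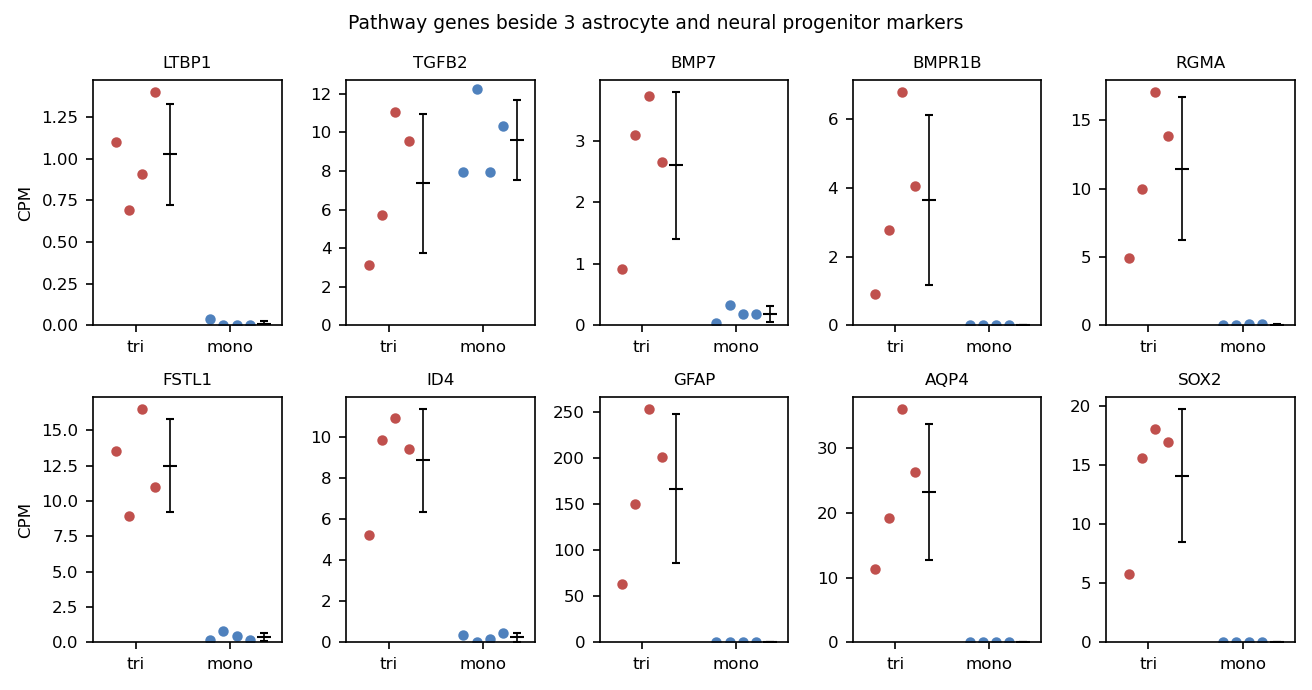
CPM of 7 pathway genes (LTBP1, TGFB2, BMP7, BMPR1B, RGMA, FSTL1 and ID4) and of the astrocyte or progenitor markers GFAP, AQP4 and SOX2 in each tri-culture library (left) and mono-culture library (right), in the order of batches 1 to 4, with the mean and SD of each group as a bar. GFAP, AQP4, SOX2, BMPR1B, RGMA, BMP7, ID4 and TGFB2 are lowest in tri-culture library 1 and highest in library 3, and all but TGFB2 of the 10 genes lie near 0 in mono-culture.

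The tri-culture libraries of batches 3 and 4 were both above those of batches 1 and 2 in 19 of the 40 tested genes (47.5%), against 31.9% of all genes tested. They were both below in 7 of the 40 (17.5%), against 31.0% of all genes. In mono-culture the libraries of batches 3 and 4 were both above in 7 of the 40 (17.5%), against 20.9% of all genes. There they were both below in 5 of the 40 (12.5%), against 21.2% of all genes. SKI, SMURF1, NRROS and LTBP2 were among the 19 in tri-culture, and the overlap of SKI and of SMURF1 with mono-culture came from tri-culture library 2.

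Exons of several of these genes overlap other annotated genes, and the strand setting of the counting is not given in the sources used here. On the same strand, 26.6% of the exon bases of TGFB2 and 7.63% of those of NRROS lie under other genes. The shares of TGIF2 and SMAD4 were 8.14% and 7.37%. On the opposite strand the largest share was 11.7% for SMURF1, then 7.98% for ACVR2A. How many of their counts came from the neighbours was not tested.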

How the data were processed

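Per the labels, sorted microglia were lysed in TRIzol LS, RNA was purified on RNeasy MinElute columns, and 4 batches were processed in parallel. The deposited counts are reads per gene. Per the submitters' processing notes the authors used HISAT2 2.1.0, featureCounts 2.12.3 and the build GRCh38, and neither the annotation release nor the strand setting is stated there. A second deposited table holds a length-normalised signal that the authors rescaled between libraries in a way not stated, and it was used only to set genes side by side and in limma-trend.

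Genes were filtered with filterByExpr (minimum count 10, minimum total 15), which left 16249, and scaled with TMM. They were tested with edgeR 4.0.16 in R 4.3.3 (quasi-likelihood, robust, group only), with Benjamini-Hochberg adjustment over all of them and a threshold of 0.05. The common biological coefficient of variation was 0.206. Standard errors are the log2 fold change over the square root of F. The labels' batch numbers pair the libraries. Libraries of one batch deviated together from their group means (correlations 0.183, 0.125, 0.257 and 0.0773), so the batch entered as a block in an alternative fit. No 2 replicates agreed within counting noise (chi-square over its degrees of freedom 8.15 to 56.2). On simulated counts for 16249 genes the test recovered 18, 34, 48 and 50 of 50 genes changed 1.5-, 2-, 4- and 8-fold and called 9 unchanged genes. The changed genes averaged at least 10 counts, were far fewer than the genes called here, and had a spread set by level alone. No batch effect was simulated, so these figures do not cover genes of low count or the batches of these data. Intervals and the floor of 3 counts cover counting error only.

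Other alternatives were DESeq2 1.42.0, its size factors, library size, upper quartile, other filters, limma 3.58.1 on log2 values with a pseudocount of 1 or 0.1, and each library or batch left out. Counts without genes that passed the filter through 1 group alone were added after seeing the data. Values were given for every called gene and for ligands, receptors, inhibitory SMADs and ID genes, for up to 4 called genes with the smallest adjusted p of each other pathway list, and for the 3 most abundant and the absent markers. The values of some genes on these lists are not reported here. The genes and lists were chosen with earlier results of these data known. GENCODE 29 gave positions and RefSeq (GRCh38.p14) the sequences before starts, found for 39 of 43 genes.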

Additional observations from a re-analysis of the deposited data

Results flagged for a closer look

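In 86 groups of 4 libraries (43 genes in 2 cultures), 6 libraries stood apart from the other 3 by Dixon's criterion, which chance alone meets in about 1 group in 20. TGFBR2 was highest in tri-culture library 1, at 586 CPM, and lowest in mono-culture library 3, at 315 CPM, the libraries without which its call was lost. ACVR2A was lowest in tri-culture library 2, at 9.83 CPM. The other 3 rest on a few counts. LTBP1 had its only count of mono-culture in library 1 (0.0342 CPM), FST had its only counts of mono-culture in library 4 (0.120 CPM), and ID1 was highest in tri-culture library 3, at 0.272 CPM.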

How the results depend on the processing

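Of the 19 called genes, 18 kept their sign under all 21 alternatives, and 11 of these kept their call in each. LTBP1, not tested with a filter of 1 CPM in 4 libraries, kept both in the other 20. In the fit with the replicate block, 10 of the pathway genes were higher and 9 lower and 4733 genes were called in all; SMAD5 was lost (adjusted p = 0.0564), ID2 was gained (0.0396), and no other call among the 40 changed. With one library left out, 8 to 9 were higher, a count that includes genes newly called. Without mono-culture library 2, BMP6, SMAD5 and SMURF1 left the genes called higher and ID3 joined them. Without mono-culture library 4 the same genes left and SMAD1 joined. Without mono-culture library 3, TGFBR2, BMP6 and SMAD5 left and ID2 joined. Over all runs that left out a library or a batch, 5 to 9 were higher, 8 to 10 lower, and 3199 to 4446 genes were called in all. The lowest number higher, 5, came without batch 3 of both groups, where TGFBR2, BMP6, SMAD5, SKI and SMURF1 missed the threshold, and among those lower ACVRL1 and SMAD2 missed it and INHBA passed. Such runs have fewer libraries. Library size only and upper quartile scaling added BMPR2, SMAD1 and ID2 to those higher (13 each), DESeq2 added ID2 and INHBA (11 higher, 10 lower), and limma-trend gave 8 higher and 10 lower at either pseudocount.

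Signs turned only for genes not called, and the cause was not tested. ACVR1B had a log2 fold change of 0.0747 with library size only, 0.0565 with upper quartile scaling, 0.0145 without batch 4, and -0.0959 to 0.0326 with one library left out. TGFBI had 0.00797 with library size only and -0.169 to 0.0126 with one library left out. BMP4 had 0.17 without batch 2 and -0.882 to 0.0693 with one library left out. ENG had -0.0361, -0.0457 and -0.0508 without batches 1, 3 and 4, and -0.0561 to 0.195 with one library left out. LTBP4 had -0.0116 without batch 4 and -0.0528 to 0.304 with one library left out. Depth limits LRRC32, FST, ID1, LTBP1, INHBA, TGFB3 and SMAD9, which had under 100 counts in each group.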
